A study of Danio rerio with 31 samples.

Results

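The brains of 4 F2 male zebrafish were compared with those of 12 F0 males, to give the difference between the generations in male brain. All fish labelled male were taken, so the comparison used 16 of the 24 fish of the series and 21 of its 31 sequencing runs. The 8 remaining fish, all F2 females, entered no test here, and their values are given beside those of the males where stated.

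The F2 males were 2 fish of the treated line, numbers 30 and 38, and 2 fish of the control line, numbers 25 and 27. The F0 males were 6 fish exposed to a mixture of polychlorinated biphenyls and polybrominated diphenyl ethers, which are persistent industrial pollutants, and 6 unexposed controls. No F2 fish was itself exposed: the treated line descends from the exposed F0 fish. All fish were adults of the TU line, a laboratory strain of zebrafish, and the whole brain was taken from each. The labels give no age in days, family or date, and the sources used here give neither the dose nor the route of the exposure. Generation is therefore confounded with age, rearing and batch, and these cannot be told apart in any value below. Fish numbers recur between groups (a number 38 and a number 25 occur in both generations) without marking the same fish. Because no family is given, p-values cover the spread between these fish only.

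An adult brain is a mixture of neurons, glia, vessel cells and immune cells, and a transcript level in the whole organ sums over all of them. In such bulk samples fewer cells of a type and less RNA per cell cannot be told apart. The zebrafish brain keeps stem cells (radial glia) and goes on making neurons throughout adult life, and many of its transcripts move with age, temperature, light phase and infection.

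Depth was 12236220 to 24749212 gene reads per F2 male and 16410081 to 34125659 per F0 male. Alignments that were not unique made up 8.78 to 28.0% of alignments in F2 males and 5.98 to 13.6% in F0 males (p = 0.022 by a two-sided exact permutation test, adjusted p = 0.21 over 15 library measures). Reads outside genes averaged 19.5% ± 1.42 in F2 males and 19.5% ± 1.39 in F0 males (SD, n = 4 and 12). None of the 15 library measures passed the adjusted threshold, and all 15 overlapped between the generations. The markers of neurons summed to 18800 to 21000 CPM (reads of a gene scaled to an equal total of gene reads) in F2 males and 19000 to 23600 CPM in F0 males, and those of oligodendrocytes to 17700 to 18500 and 16800 to 25200 CPM.

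The leading principal component of log2 CPM held 26.6% of the variance among the 16 males. The 4 F2 males scored 29.8 to 72.0 on it, and 11 of the 12 F0 males scored between -71.1 and 15.9. The exception was exposed F0 male 16, at 112, beyond every F2 male. The second component set the same fish apart in the other direction, at -72.9, against 6.66 to 72.0 in the F2 males. Both F2 control males, 25 and 27, scored higher on both components than the F2 treated-line males did.

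**Figure D1:**
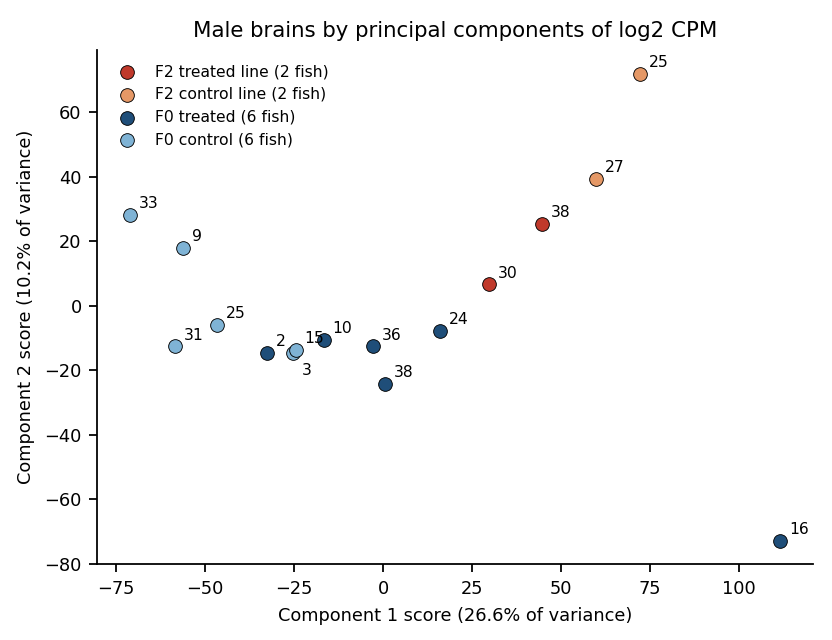
Scores of the 16 males on the first 2 principal components of log2 CPM, with the fish number beside each point; red and orange are the 2 F2 groups and dark and light blue the 2 F0 groups. The F2 males lie between 29.8 and 72.0 on the horizontal axis, with exposed F0 male 16 alone at the lower right.

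Of 19177 genes tested, 2480 (12.9%) differed between F2 and F0 males at an adjusted p below 0.05 by edgeR's quasi-likelihood test with arm as a term; these are called below. In F2 males 1126 genes (5.87%) were higher and 1354 (7.06%) were lower. The genes called higher changed little, with a median fitted log2 fold change of 0.47 and 65 genes over 2-fold. Those called lower had a median of -0.89 and 559 genes over 2-fold. Tested against a fold of 1.5 by edgeR, 0 genes were called, with 1306 at an unadjusted p below 0.05. The median over all tested genes was -0.01. Genes called higher had a median level of 60.9 CPM, those called lower 15.3 CPM and all tested genes 9.27 CPM. The 4 F2 and 12 F0 values did not overlap in 257 genes (1.34%), of which 231 were called.

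The calls rested on the F2 control males. Without F2 control male 25 the test called 73 genes and without F2 control male 27 it called 57, with the fish left in that group assumed to vary like the others, and 2409 and 2424 of the 2480 genes were lost. Without F2 treated-line male 30 or 38 it called 3224 and 2083, and without exposed F0 male 10 it called 1604. Exposed F0 male 16 acted the other way: without it 5151 genes were called. Of the 12 F0 fish it had the highest level of a gene called higher, or the lowest of a gene called lower, in 1770 of the 2480 called genes (71.4%). Each other F0 fish did so in 1.13 to 6.77% of them. With all 24 fish in 1 fit, 902 genes were called, 848 of them among the 2480. DESeq2 called 3676, including 2455 of them.

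Each arm was also taken as a contrast in a fit with a generation by arm term. Within the treated arm edgeR called 0 genes (0.0%), with 1177 at an unadjusted p below 0.05; a fit of the treated males alone also called 0 by edgeR and 26 by DESeq2. Within the control arm 4202 genes (21.9%) were called, 1898 higher and 2304 lower in F2 than in F0 males. Of the 2480 called genes 2479 had the same sign in both arms. These genes were picked by the fit that pools both arms of the same fish, which favours equal signs, so the count is no independent check. The difference between the arms was itself past the threshold by edgeR for 2 genes (0.0104%), with 2500 at an unadjusted p below 0.05. DESeq2 called 156, and edgeR called 63 without exposed F0 male 16. In the main edgeR fit, the unequal counts of the arms are thus not shown to be unequal effects for the other genes. The 2 genes past the threshold in that fit were both without a read in the 2 F2 control males. HLF, a clock-controlled transcription factor of the PAR bZIP family, stood at 1.79 and 1.45 CPM in F2 treated-line males and 0 and 0 CPM in F2 control males, against 1.15 to 4.65 CPM in exposed and 2.54 to 8.61 CPM in control F0 males. Against a floor of 3 reads over both libraries it was at least 75.7-fold lower in F2 than in F0 control males. The clone-named gene si:ch211-93g21.1 was at least 61.8-fold lower in the same comparison, while its F2 treated-line males had 3.33 and 5.05 CPM, inside the F0 range of 1.28 to 6.58 CPM.

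**Figure D2:**
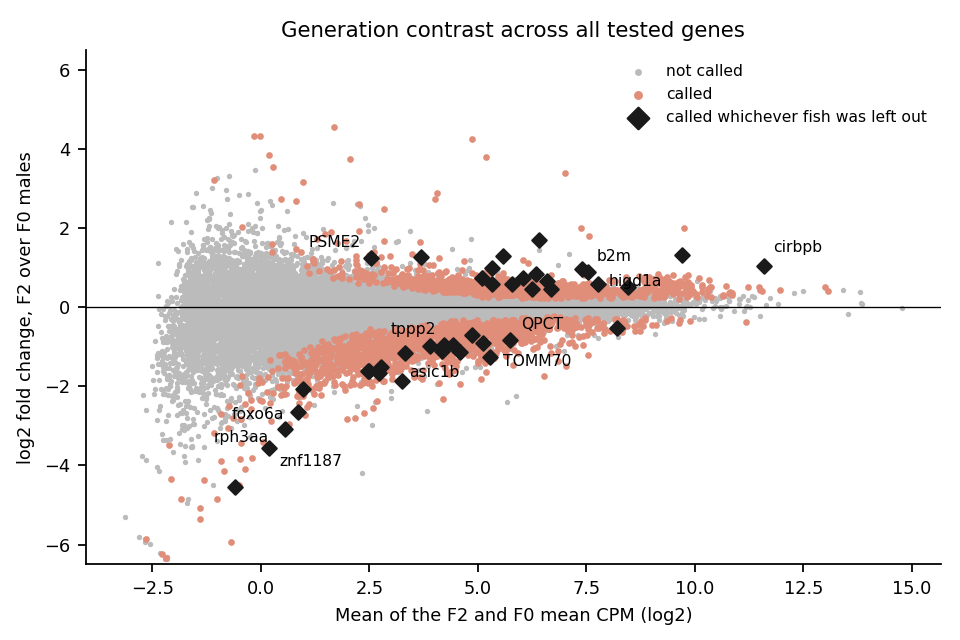
The log2 fold change of F2 over F0 males (vertical axis) against the mean of the 2 generations' mean CPM (horizontal axis, log2 scale) for each tested gene, with 6 genes beyond ±6.5 not drawn. Called genes are orange and the 40 genes called whichever fish was left out are black diamonds. By fitted fold change more called genes lie beyond a 2-fold fall (559) than beyond a 2-fold rise (65). Tested against a fold of 1.5, 0 genes were called.

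Leaving out each of the 16 males in turn, 40 genes (0.209% of those tested) were called every time, 19 higher and 21 lower in F2 males; they were singled out after their values were seen. cirbpb, a homologue of the cold-inducible RNA-binding protein, had 2629 and 4811 CPM in F2 treated-line and 4947 and 4426 CPM in F2 control males, against a lowest, median and highest value of 1706, 2018 and 2330 CPM in F0 males. All 4 F2 males lay above all 12 F0 males, and exposed F0 male 16, at 2146 CPM, lay among the F0 fish. The fold change was 1.05 ± 0.12 (log2, SE) with an adjusted p of 0.000364 by edgeR. The 8 F2 females had 2402 to 3950 CPM, also above every F0 male. Its paralogue cirbpa, chosen after its values were seen, averaged 909 ± 128 CPM in F2 and 626 ± 86.2 CPM in F0 males and was called higher (log2 fold change 0.55).

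Several of the 40 encode mitochondrial proteins, named here after their values were seen and tested as no group. TOMM70, a receptor of the outer-membrane import channel, had 23.8, 24.0, 19.8 and 22.9 CPM in F2 males 30, 38, 25 and 27, against 30.4, 55.5 and 70.8 CPM (lowest, median, highest) in F0 males. The groups did not overlap, and the lowest F0 value belonged to exposed male 16. The log2 fold change was -1.27 ± 0.15 (adjusted p = 0.000488, edgeR). tomm20a, another receptor of that channel, was higher at 82.5, 91.3, 121 and 120 CPM in F2 males, against 46.1, 54.6 and 90.5 CPM in F0 males, where only exposed male 16 reached above the lowest F2 male. TIMM10, a chaperone of the space between the membranes, averaged 81.7 ± 14.1 CPM in F2 and 49.3 ± 7.72 CPM in F0 males. higd1a, a hypoxia-inducible protein of the inner membrane, had 242 to 279 CPM in F2 and 146 to 240 CPM in F0 males (log2 fold change 0.58). MARCHF5, a ubiquitin ligase of the outer membrane, was lower, at 2.68 ± 0.56 CPM in F2 and 8.49 ± 3.19 CPM in F0 males. So was atad1a, a homologue of the ATPase that extracts misplaced proteins from that membrane, at 4.00 ± 1.35 against 14.9 ± 4.42 CPM.

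Other genes of the 40 were lower in F2 males, some of them genes of neurons and membranes. asic1b, an acid-sensing sodium channel subunit, had 14.4, 15.3, 16.8 and 13.8 CPM in F2 males 30, 38, 25 and 27, against 21.5, 34.6 and 42.0 CPM (lowest, median, highest) in F0 males. tppp2, a tubulin polymerisation promoting protein, averaged 12.6 ± 0.72 CPM in F2 males and 24.6 ± 3.84 CPM in F0 males, whose lowest fish had 17.9 CPM. QPCT, the glutaminyl cyclase that modifies the ends of neuropeptides, had 36.8, 47.3, 35.2 and 34.4 CPM in F2 males, against 55.1, 68.2 and 87.0 CPM in F0 males. In these 3 genes every F2 male lay below every F0 male, with log2 fold changes of -1.14 ± 0.16, -0.96 ± 0.14 and -0.82 ± 0.11 (SE; adjusted p by edgeR 0.003, 0.003 and 0.00159). CLCN6, a chloride transporter of late endosomes, averaged 10.0 ± 2.06 CPM in F2 and 19.9 ± 3.07 CPM in F0 males, and STEAP2, a metal reductase, 11.4 ± 0.85 and 24.5 ± 5.66 CPM. WDR35, a component of transport within cilia, was lower by a log2 fold change of -0.70, with every F2 male below every F0 male.

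Those of the 40 that were higher included b2m and PSME2, both of the pathway that presents peptides on MHC class I molecules. b2m, the small chain of class I molecules, had 210, 267, 194 and 288 CPM in F2 males 30, 38, 25 and 27, against 85.2, 129 and 186 CPM (lowest, median, highest) in F0 males. PSME2, a subunit of the proteasome activator PA28, had 7.95, 7.60, 8.98 and 7.86 CPM in F2 males, against 1.78, 3.37 and 7.13 CPM in F0 males. Neither gene overlapped between the generations, and PSME2 averaged 8.10 ± 0.61 CPM in F2 and 3.49 ± 1.33 CPM in F0 males (SD, n = 4 and 12). The log2 fold change of b2m was 0.88 ± 0.14, and the adjusted p by edgeR was 0.00495 for b2m and 0.00699 for PSME2. CLIC4, an intracellular chloride channel protein, averaged 66.3 ± 4.80 CPM in F2 and 44.5 ± 4.77 CPM in F0 males. The RNA-processing genes SMNDC1 and hnrnpa0a were higher by 0.45 and 0.50 (log2), ZMPSTE24, the protease that matures lamin A, by 0.46, and PGP, a phosphoglycolate phosphatase, by 0.73. ZFR, which binds double-stranded RNA, was lower (log2 fold change -0.52), at 242 ± 51.2 CPM in F2 and 344 ± 18.2 CPM in F0 males.

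Several of the 40 carry only clone names. si:ch211-213a13.1 had 59.9, 71.5, 67.8 and 74.8 CPM in F2 males 30, 38, 25 and 27, against 18.5, 24.1 and 51.0 CPM (lowest, median, highest) in F0 males, and the 8 F2 females had 51.6 to 95.4 CPM. A gene named from the same clone, si:ch211-213a13.5, went the other way: it had 0 to 0.14 CPM in F2 males and 0.58 to 2.07 CPM in F0 males. si:dkey-238c7.12 averaged 1185 ± 428 CPM in F2 and 485 ± 123 CPM in F0 males. The tables used here name no product for these IDs.

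**Figure D3:**
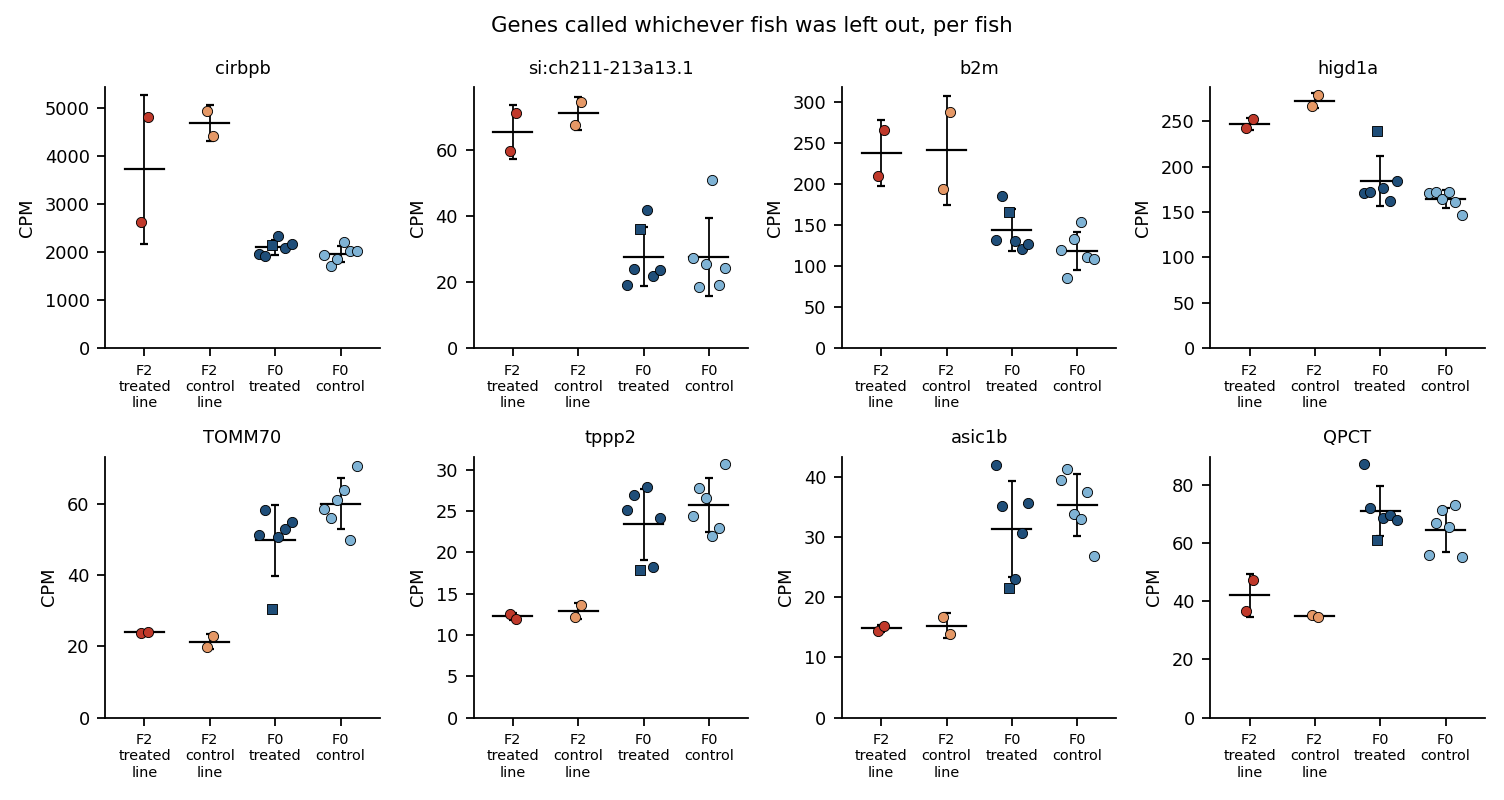
CPM of 8 genes called whichever fish was left out, with each point a fish, the line the group mean and the bar ± 1 SD; the square is exposed F0 male 16. The 4 F2 males lie above all 12 F0 males in the upper row and below all 12 in the lower row.

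The largest changes were taken among called genes with a name whose generations did not overlap. Their mean was 2 CPM or more in the higher generation, with no limit set for the lower one. angptl1b, an angiopoietin-like secreted protein, rose most, with 41.5, 22.2, 28.8 and 24.1 CPM in F2 males 30, 38, 25 and 27 against 0.64, 1.98 and 18.2 CPM (lowest, median, highest) in F0 males. Its highest F0 value was F0 control male 31, and the F2 females spanned 0.58 to 38.6 CPM, so its level varied widely between fish. DESeq2 gave angptl1b no adjusted p, and with all 24 fish in the fit its adjusted p by edgeR was 0.076. The log2 fold change was 2.90 ± 0.73 (adjusted p = 0.0246 by edgeR; 0.104 without F2 control male 25 and 0.0855 without 27). KL, the co-receptor Klotho of FGF23, had 2.73, 2.83, 3.69 and 5.93 CPM in F2 males against 0.23, 1.05 and 2.21 CPM in F0 males (log2 fold change 1.72). GRIP2, a scaffold of AMPA receptors and 1 of 2 IDs with that symbol, averaged 11.2 ± 2.83 CPM in F2 and 4.54 ± 2.27 CPM in F0 males, and the cilia genes CFAP100 and dnaaf2 rose by 1.39 and 1.11 (log2). cldn7b, an epithelial claudin, rose by 0.91 and dhrs11b.2, a short-chain dehydrogenase, by 0.99. KL, GRIP2, CFAP100, dnaaf2 and cldn7b lost their call without F2 control male 25, without 27 and with all 24 fish in the fit. dhrs11b.2 kept its call in each of these fits.

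The largest fall in this set was that of znf1187, a zinc finger gene, with 0 to 0.37 CPM in F2 males and 0.58 to 4.53 CPM in F0 males (log2 fold change -3.57 ± 0.66, adjusted p = 0.00699 by edgeR). rph3aa, a homologue of rabphilin, which binds Rab3 on synaptic vesicles, had 0.19 to 0.39 CPM in F2 and 0.43 to 4.62 CPM in F0 males (-3.08 ± 0.51). foxo6a, a forkhead factor of the FoxO family, had 0.60, 0.21, 0.61 and 0.56 CPM in F2 males against 1.53, 3.03 and 5.75 CPM in F0 males (-2.65 ± 0.42). In all 3 the F2 values were near 0 CPM, so the size of each fall rests on few reads. These 3 genes and ttll5, a tubulin glutamylase (-2.08 ± 0.40), also belong to the 40 genes called whichever fish was left out. With all 24 fish in the fit, rph3aa kept its call (adjusted p = 0.0411 by edgeR). znf1187, foxo6a and ttll5 did not (0.0696, 0.0923 and 0.14). FXYD6, a regulator of the sodium pump, had 7.69, 6.08, 3.86 and 4.87 CPM in F2 males against 8.53, 30.8 and 53.8 CPM in F0 males (-2.31 ± 0.38), with exposed F0 male 16 the lowest F0 fish. Its adjusted p by edgeR was 0.00614 and became 0.0534 without F2 control male 27. gabra2a, a GABA-A receptor subunit, fell to 0.62 to 1.22 CPM in F2 males, against 1.81 to 9.02 CPM in F0 males, and CAMK1, a calcium and calmodulin dependent kinase and 1 of 2 IDs with that symbol, to 0.25 to 1.22 CPM against 1.41 to 7.50 CPM. Neither gabra2a nor CAMK1 kept its call without F2 control male 25, without 27 or with all 24 fish in the fit.

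Most genes for cytosolic ribosomal proteins were called higher in F2 males. Of 81 tested genes for cytosolic ribosomal proteins 69 rose and 1 fell, against 5.87% and 7.06% of all genes, and the median log2 fold change was 0.58. RPL31, a protein of the large subunit, had 746, 770, 1155 and 989 CPM in F2 males 30, 38, 25 and 27, against 410, 497 and 860 CPM (lowest, median, highest) in F0 males. Only exposed F0 male 16, at 860 CPM, reached into the F2 range. RPL31 rose by 0.82 ± 0.16 (log2, SE; adjusted p = 0.00786, edgeR).

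Averaged over the 81 genes, log2 CPM was 9.02, 9.15, 9.49 and 9.27 in F2 males 30, 38, 25 and 27. It was 9.36 in exposed F0 male 16, above 3 of the 4 F2 males, and 8.39 to 8.97 in the other 11 F0 males. The median log2 fold change was 0.23 in the treated arm and 0.91 in the control arm. None of the 81 (0) was called higher without F2 control male 25 and 0 without 27, while 63 were with all 24 fish in the fit and 75 without exposed F0 male 16 and control males 9 and 33. Among F0 fish, male 16 lay nearest the F2 side in 71.4% of all called genes. Leaving it out favours more calls, so the count of 75 is no independent check. Alignments that were not unique averaged 16.3% in F2 and 8.51% in F0 males, and their part in these list counts was not tested.

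Of 75 genes for mitochondrial ribosomal proteins 24 rose by edgeR (32.0%, against 5.87% of all tested genes) and 32 by DESeq2, and 0 fell by either (0 also at an unadjusted p below 0.05; median log2 fold change 0.36). Of 93 nuclear genes of the respiratory chain 22 rose (23.7%) and 1 fell (median 0.33). MRPS2 had 46.3 to 67.8 CPM in F2 and 23.1 to 49.6 CPM in F0 males (log2 fold change 0.76), and NDUFS8, a complex I subunit, 228 to 248 CPM in F2 and 138 to 256 CPM in F0 males (0.46). In both genes exposed F0 male 16 was the highest F0 fish, inside the F2 range for MRPS2 and above it for NDUFS8. Of the 13 protein genes of the mitochondrial genome 6 rose, 4 of them among the 7 of complex I. MT-ND2 had 3177, 3204, 4003 and 3062 CPM in F2 males 30, 38, 25 and 27, against 1948, 2302 and 2817 CPM (lowest, median, highest) in F0 males, with no overlap (log2 fold change 0.52 ± 0.10, adjusted p = 0.00699 by edgeR). Of 41 proteasome subunits 10 rose, such as PSMD8 (0.41), and 1 fell. The counts called in these 4 lists were 0, 0, 0 and 0 without F2 control male 25, and 0, 0, 2 and 0 without 27.

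Structural RNAs had the highest median of the 52 lists, 1.64. The list held 199 IDs, of which only 5 passed the filter on low counts; 4 of these rose, 3 without F2 control male 25 and 0 without 27. rn7sl1, the RNA of the signal recognition particle, had 2591, 908, 504 and 1449 CPM in F2 males 30, 38, 25 and 27, against 163, 279 and 797 CPM (lowest, median, highest) in F0 males. F2 control male 25 lay below exposed F0 males 2, 10 and 16, and the other F2 males above all F0 males. The log2 fold change was 2.00 ± 0.31 (adjusted p = 0.00614 by edgeR, 0.0538 without F2 control male 27). rn7sk, which holds the elongation factor P-TEFb, rose by 1.80 and rmrp, the RNA of RNase MRP, by 1.64. These RNAs lack the long poly(A) tails that the library kit selects for, and the part of the library preparation in these values was not tested. Among the F2 females rn7sl1 ran over 292 to 1599 CPM.

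**Figure D4:**
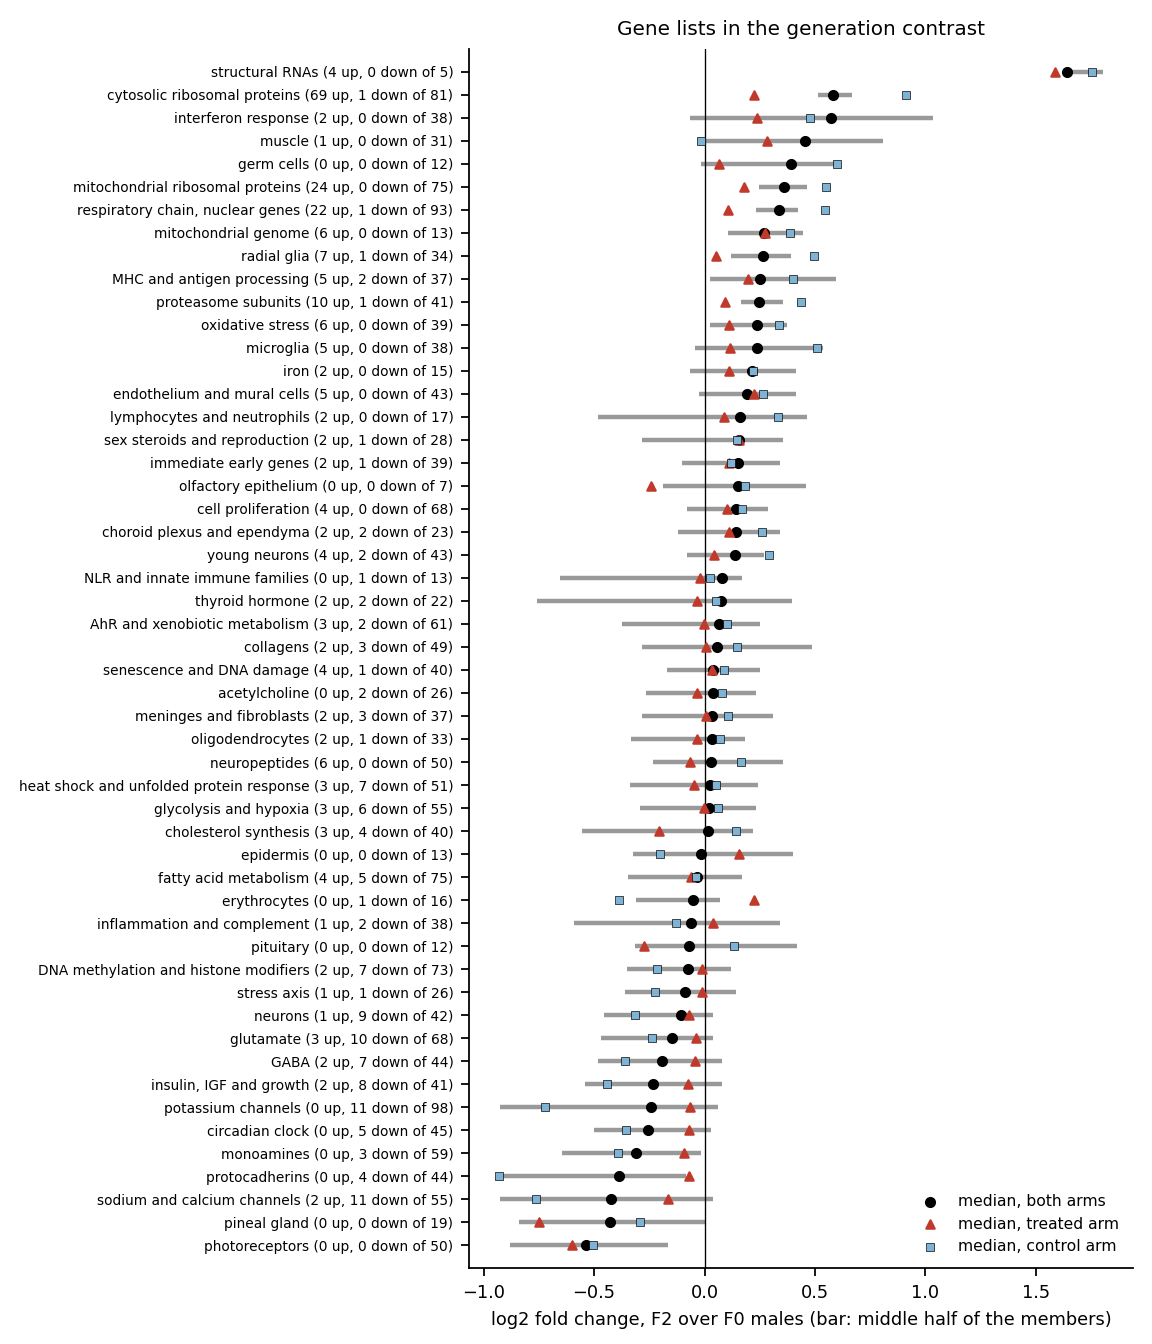
Median log2 fold change of F2 over F0 males for 52 gene lists (black), with the medians in the treated arm (red triangles) and the control arm (blue squares); grey bars span the quartiles of the members, and each label gives the members called higher and lower of those tested. Structural RNAs and cytosolic ribosomal proteins stand highest, at 1.64 and 0.58, and the median of the control arm lies farther from 0 than that of the treated arm in 44 of the 52 lists.

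Of 98 tested potassium channel genes 0 were called higher and 11 lower (11.2%, against 7.06% of all tested genes; median log2 fold change -0.24) and 87 did not pass, with 0 higher also by DESeq2 and at an unadjusted p below 0.05. Of 55 voltage-gated sodium and calcium channel genes 2 rose, 11 fell and 42 did not pass (median -0.42). KCND3, a channel of the A-type current, had 25.1, 22.4, 19.2 and 18.5 CPM in F2 males 30, 38, 25 and 27, against 26.8, 36.0 and 45.5 CPM (lowest, median, highest) in F0 males. No F2 male overlapped with an F0 male, and exposed male 16 was the lowest F0 fish (log2 fold change -0.74 ± 0.13, adjusted p = 0.00614 by edgeR). CACNA1C, the pore of an L-type calcium channel, had 10.8 to 16.2 CPM in F2 and 12.3 to 48.9 CPM in F0 males (-1.05), and CACNA2D3, an auxiliary calcium channel subunit and 1 of 2 IDs with that symbol, 0.25 to 0.94 CPM in F2 and 0.61 to 6.38 CPM in F0 males (-2.71). Of 44 protocadherins, adhesion proteins of neurons, 4 fell (9.09%, near the 7.06% of all genes) and 0 rose by edgeR (median -0.39), and 8 fell and 0 rose by DESeq2, with 0 higher at an unadjusted p below 0.05. PCDH7, a member of the family, had 9.02 to 16.6 CPM in F2 and 11.2 to 25.3 CPM in F0 males.

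In each of these 3 lists the mean log2 CPM of exposed F0 male 16 was lower than that of all 4 F2 males or of 3 of them. For potassium channels it was 1.58 in male 16, against 2.13, 2.01, 1.68 and 1.84 in F2 males 30, 38, 25 and 27 and 2.02 to 2.75 in the other F0 males. For protocadherins it was 1.27 in male 16, against 2.16, 1.86, 1.70 and 1.69 in the F2 males and 1.78 to 2.98 in the other F0 males. The median log2 fold change of potassium channels was -0.07 in the treated and -0.72 in the control arm, and that of protocadherins -0.07 and -0.93. The 3 lists had 1, 0 and 0 falls without F2 control male 25, and 0, 0 and 0 without 27.

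**Figure D5:**
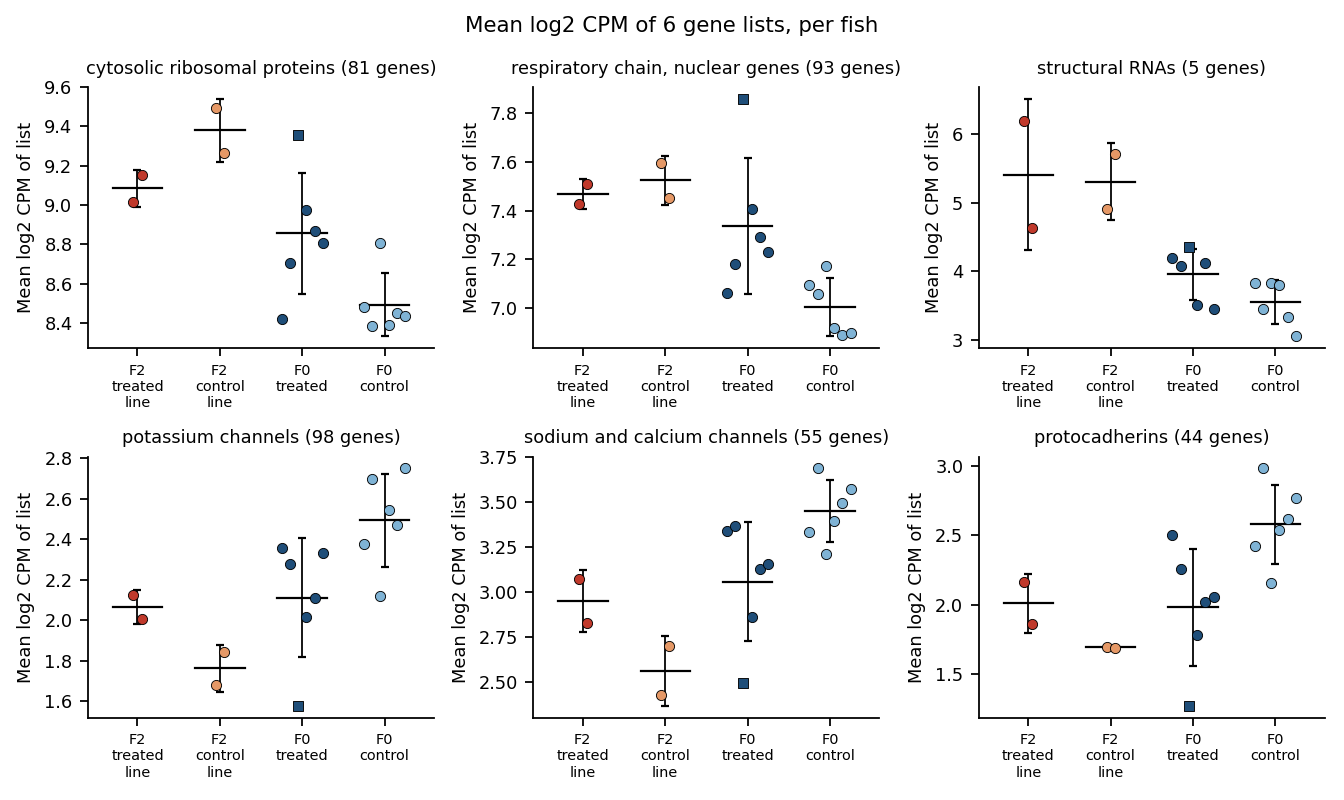
Mean log2 CPM of 6 gene lists in each male, with the line the group mean, the bar ± 1 SD and the square exposed F0 male 16. That fish lies beyond at least 3 of the 4 F2 males in 5 lists and below all of them in structural RNAs.

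Of 42 neuron markers 1 rose, 9 fell (21.4%, against 7.06% of all tested genes) and 32 did not pass (median log2 fold change -0.11). NSF, the ATPase that recycles SNARE complexes, had 338, 360, 333 and 314 CPM in F2 males 30, 38, 25 and 27, against 303, 514 and 618 CPM (lowest, median, highest) in F0 males, where only exposed male 16 lay below the F2 males. Its fold change was -0.60 ± 0.13 (log2, SE; adjusted p = 0.0115, edgeR). The member that rose, atp1a3b, encodes the sodium pump subunit of neurons and had 2672 to 3130 CPM in F2 and 1574 to 2584 CPM in F0 males, with no overlap. Of 68 glutamate genes 3 rose and 10 fell (14.7%), among the falls the NMDA receptor subunit GRIN2B, 1 of 2 IDs with that symbol, at 102 ± 5.81 CPM in F2 and 150 ± 37.7 CPM in F0 males. Of 44 GABA genes 2 rose and 7 fell (15.9%), among them GABRA5 (14.8 ± 1.35 CPM in F2, 27.6 ± 8.12 CPM in F0 males) and SLC32A1, the vesicular GABA transporter (191 ± 16.1 and 274 ± 51.8 CPM).

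Monoamine and acetylcholine genes were called lower at shares near that of all tested genes, 7.06%. Of 59 monoamine genes 3 fell (5.08%) and 0 rose, with mao, the enzyme that breaks monoamines down, at 36.5 ± 4.26 CPM in F2 and 56.7 ± 14.7 CPM in F0 males (DESeq2 called 7 lower and 0 higher, and 2 were higher at an unadjusted p below 0.05). Of 26 acetylcholine genes 2 fell (7.69%) and 0 rose (3 and 0 by DESeq2, with 2 higher at an unadjusted p below 0.05), and ACHE, acetylcholinesterase, averaged 137 ± 9.06 CPM in F2 and 227 ± 47.5 CPM in F0 males. Of 50 neuropeptide genes 6 rose (5.87% of all genes did) and 0 fell by edgeR (median 0.03), with 3 lower at an unadjusted p below 0.05 and 3 lower by DESeq2. The summed level of the list went the other way, at 3420 to 3700 CPM in F2 and 3720 to 4430 CPM in F0 males. Every F2 male thus lay below every F0 male in that sum, and the genes named next are members that rose. npvf, the precursor of RFamide peptides of the hypothalamus, had 32.1, 10.3, 38.4 and 15.3 CPM in F2 males 30, 38, 25 and 27, against 3.92, 9.39 and 21.6 CPM (lowest, median, highest) in F0 males. chgb, a granin of secretory granules, averaged 34.3 ± 6.97 CPM in F2 and 22.0 ± 4.40 CPM in F0 males, and nmba, a neuromedin B precursor, 6.58 ± 4.28 and 2.60 ± 0.83 CPM. Without F2 control male 25 or 27, the calls in all these transmitter lists were 0, and 1 neuron marker stayed higher without 25.

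Of 34 radial glia markers 7 rose (20.6%, against 5.87% of all tested genes), 1 fell and 26 did not pass (median 0.26). S100B, a calcium-binding protein of glia, had 681, 820, 775 and 1024 CPM in F2 males 30, 38, 25 and 27, against 390, 456 and 703 CPM (lowest, median, highest) in F0 males. F2 male 30 overlapped with exposed F0 male 16 alone, and the log2 fold change was 0.77 ± 0.13 (adjusted p = 0.00614, edgeR). The member that fell, SLC1A3, is the glial glutamate transporter GLAST and 1 of 2 IDs with its symbol, at 49.0 ± 19.5 CPM in F2 and 84.8 ± 19.9 CPM in F0 males. Of 33 oligodendrocyte markers 2 rose (6.06%, near the 5.87% of all genes) and 1 fell (3.03%, against 7.06% of all genes), with a median of 0.03. OLIG2, a lineage factor, rose (73.7 ± 18.8 CPM in F2, 47.0 ± 10.6 CPM in F0 males), CNTN1 rose by 0.23 (log2), and mag, a myelin protein, fell (81.9 ± 21.0 and 155 ± 34.6 CPM). Of 43 markers of young neurons 4 rose (9.30%) and 2 fell, and of 68 proliferation genes 4 rose (5.88%, near the 5.87% of all genes), 2 of them the IDs of CDKN1B, an inhibitor of the cell cycle, with 0 falls by edgeR, 1 at an unadjusted p below 0.05 and 1 by DESeq2. Of 43 markers of vessel walls 5 rose (11.63%), such as SOX7, an endothelial factor (39.0 ± 5.57 CPM in F2, 26.6 ± 4.42 CPM in F0 males). Without F2 control male 25 the radial glia, oligodendrocyte, young neuron, proliferation and vessel lists had 1, 0, 0, 1 and 0 rises, and without 27 all 5 had 0.

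Of 38 microglia markers 5 rose (13.2%, against 5.87% of all tested genes) and 0 fell (10 and 0 by DESeq2, with 0 lower at an unadjusted p below 0.05), and their summed level was 1380 to 2130 CPM in F2 and 1240 to 1530 CPM in F0 males. apoc1, an apolipoprotein that zebrafish microglia express, had 328, 316, 638 and 450 CPM in F2 males 30, 38, 25 and 27, against 203, 238 and 357 CPM (lowest, median, highest) in F0 males. The complement gene c1qa, of the same list, and c4, of the inflammation list, averaged 5.04 ± 1.60 and 21.5 ± 9.96 CPM in F2 males and 1.70 ± 1.04 and 9.79 ± 2.69 CPM in F0 males. Of the 38 tested genes of the inflammation and complement list 1 rose (2.63%) and 2 fell (5.26%), with a median of -0.06. Of 37 genes of MHC molecules and antigen processing 5 rose (13.5%), b2m and PSME2 with them, and 2 fell (median 0.25). Of 38 interferon response genes 2 rose (5.26%, near the share of all genes), gbp2 and SAMHD1, and 36 did not pass, with a median of 0.57. The ifi27 genes, a family induced by interferon in zebrafish, lay outside the list and were chosen after their values were seen. ifi27.3 had 2.22, 0.76, 5.29 and 16.3 CPM in F2 males against 0, 0.14 and 0.96 CPM in F0 males (log2 fold change 4.55 ± 1.04, adjusted p = 0.015 by edgeR), ifi27.2, ifi27.4 and ifi27.6 were also called higher, and ifi27.1 and ifi27.5 did not pass. Their levels varied from fish to fish in every group, with 0 to 117 CPM of ifi27.2 in the F2 females. As near-identical copies may share reads, the split between them is uncertain. Of 17 lymphocyte and neutrophil markers 2 rose, and 1 of these is polr1g, a subunit of RNA polymerase I that an older symbol brought into the list. The other, ighm, the heavy chain of IgM, had 0.94 to 3.43 CPM in F2 and 0 to 1.18 CPM in F0 males. Without F2 control male 25 the microglia, MHC and interferon lists had 0, 2 and 0 rises, and without 27 likewise 0, 2 and 0.

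Of 45 clock genes 5 fell (11.11%, against 7.06% of all tested genes), 40 did not pass and 0 rose by edgeR (median -0.26), with 4 higher at an unadjusted p below 0.05 and 2 by DESeq2. tefb, an output factor of the PAR bZIP family, had 57.9, 57.6, 68.3 and 58.1 CPM in F2 males 30, 38, 25 and 27, against 50.1, 113 and 153 CPM (lowest, median, highest) in F0 males, where exposed male 16 was the lowest. Its log2 fold change was -0.88 in each arm (-0.88 ± 0.21 in all, adjusted p = 0.0171 by edgeR). The activator CLOCK, 1 of 2 IDs with that symbol, averaged 2.56 ± 0.29 CPM in F2 and 8.33 ± 4.89 CPM in F0 males, and rorca, a ROR receptor, 2.69 ± 1.42 and 7.75 ± 3.11 CPM. The hour of dissection is not given in the sources used here. Of 51 genes of heat shock and the unfolded protein response 3 rose and 7 fell (13.7%); HSP90AB1, a constitutive chaperone, had 2251, 2079, 1963 and 1859 CPM in F2 males and 2303 to 2907 CPM in F0 males, below all of them (-0.36 ± 0.07). The calls of both lists were 0 without F2 control male 25 or 27.

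The shares called in endocrine, metabolic and chromatin lists varied, beside 5.87% higher and 7.06% lower of all tested genes. Of 22 thyroid hormone genes 2 rose (9.09%) and 2 fell (9.09%), with a median log2 fold change of 0.07. DIO2, the deiodinase that activates thyroid hormone, had 155, 228, 168 and 191 CPM in F2 males 30, 38, 25 and 27, against 114, 136 and 174 CPM (lowest, median, highest) in F0 males (log2 fold change 0.41 ± 0.11, adjusted p = 0.0227 by edgeR). The F2 females, at 32.6 to 69.4 CPM, lay below all males of both generations. Of 41 genes of insulin and IGF signalling 2 rose (4.88%) and 8 fell (19.5%). Among the falls was SOCS2, a suppressor of growth hormone signalling, at 0.80 ± 0.38 CPM in F2 and 3.89 ± 1.69 CPM in F0 males. Of 40 cholesterol synthesis genes 3 rose (7.5%) and 4 fell (10.0%), with SC5D (3.28 ± 1.06 CPM in F2, 9.43 ± 2.87 CPM in F0 males) and HMGCS1 lower. Of 55 genes of glycolysis and hypoxia 3 rose (5.45%) and 6 fell (10.9%), with a median of 0.02. Among the falls was BNIP3, a mitophagy receptor of the hypoxia response, at 31.1 ± 8.59 CPM in F2 and 59.6 ± 10.7 CPM in F0 males. Of 61 genes of the AhR pathway and xenobiotic metabolism 3 rose (4.92%) and 2 fell (3.28%, median 0.07), with 5 higher and 2 lower by DESeq2. Of 39 genes of oxidative stress 6 rose (15.4%), among them SOD2, the mitochondrial superoxide dismutase (191 ± 12.3 CPM in F2, 150.0 ± 27.2 CPM in F0 males). Exposed F0 male 16 had 213 CPM of SOD2. Of 73 genes for DNA methylation and histone modification 2 rose (2.74%) and 7 fell (9.59%). Among the falls was KMT2C, a histone methyltransferase and 1 of 2 IDs (32.3 ± 3.07 CPM in F2, 48.5 ± 9.07 CPM in F0 males). The acetyltransferase KAT2A rose to 17.3 ± 1.33 CPM in F2 males, against 10.2 ± 2.73 CPM in F0 males. Without F2 control male 25 the calls in all these lists were 0 except 1 insulin and IGF gene, and without 27 they were 0.

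Markers of the eye, pineal gland, pituitary, skin, nose and germ line gave no call by edgeR, beside 12.9% called of all tested genes. The smaller of these lists hold too few tested genes to tell 0 calls from that share. Of 50 photoreceptor genes 0 were called and of 19 pineal genes 0, with medians of -0.53 and -0.43; DESeq2 called 1 and 0, and 1 and 0 had an unadjusted p below 0.05. Their summed levels were 837 to 1950 and 65.0 to 173 CPM in F2 males, and 938 to 2340 and 66.5 to 303 CPM in F0 males. The gene rbp3 had 38.3, 3.80, 5.21 and 42.6 CPM in F2 males 30, 38, 25 and 27, against 0.68, 53.1 and 98.3 CPM (lowest, median, highest) in F0 males. F2 males 38 and 25 and F0 control males 9 and 33 were low and all other males were at 35.9 CPM or more. The pituitary, epidermis, olfactory and germ cell markers had 0 calls by edgeR of 12, 13, 7 and 12 tested. DESeq2 called 1, 1, 1 and 0 of them, and 3, 3, 2 and 0 had an unadjusted p below 0.05. Of 31 muscle markers 1 rose (3.23%, against 5.87% of all tested genes) and 30 did not pass. The riser was ACTA1, 1 of 2 IDs with that symbol. It had 21.8 CPM in F2 control male 27, 2.39 to 5.55 CPM in the other F2 males and 0.36 to 2.62 CPM in F0 males.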

How the data were processed

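Per the labels' protocols, brains were flash frozen, RNA was prepared with a Qiagen RNeasy kit, and Illumina's TruSeq mRNA kit gave the libraries. Per the submitters' processing notes the builds were GRCz11 and danRer11, and the tools named, with no role, are HTSeq 0.11.2, STAR 2.7, DESeq2 1.24.0, cutadapt 2.1 and bcl2fastq. For the annotation release and the strand setting: not given in the sources used here. Reads of a gene and of one that overlaps it, antisense included, cannot be told apart. The deposited files hold raw read counts per gene and run as made by the authors, for 32520 gene IDs, 29201 of which matched a symbol.

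Rows that name no gene (reads outside genes, ambiguous or not unique) were kept out of totals and tests. The 2 runs of a fish were summed: within the 5 such pairs the chi-square per degree of freedom was 1.07 to 1.12, against 18.3 to 115 between fish of one group. Each fish counts once. Genes passing filterByExpr at a minimum count of 10 were scaled by TMM and tested with edgeR 4.0.16 (robust quasi-likelihood, generation plus arm), adjusted by Benjamini-Hochberg over all genes tested at 0.05; fold changes are F2 over F0. An interaction of generation and arm was tested likewise. DESeq2 1.42.0 was an alternative, beside other normalization, filtering, designs, sets of fish and a test against a fold of 1.5. Library measures had two-sided exact permutation tests of the difference of means, whose smallest possible p is 0.0011. R 4.3.3, Python 3.11.15, scipy 1.17.1 and matplotlib 3.10.9 were used, and the edgeR fit was tested on simulated counts. The CPM of a single gene was scaled by the TMM factors (0.884 to 1.082), so it is not the gene's plain share of gene reads. Statements that generations did or did not overlap in a gene hold on that scale. The summed CPM of a list is its share of gene reads, without those factors. Values are mean ± SD over 4 F2 and 12 F0 males unless said otherwise. The ± of a log2 fold change is its SE.

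The members and the 52 gene lists were chosen with earlier results of these data known. List names were matched by symbol (1781 of 1889 names), also without paralogue suffixes, so that a list may hold a gene of another kind. Genes were named by rule, and a gene that was called needed a mean of 2 CPM or more in the higher generation. Taken were the 12 largest rises and 12 largest falls among called genes without overlap. Up to 3 called members of each list by lowest p were added, or for a list with no call the member of highest level. The genes called whichever fish was left out and those said to be chosen after their values were seen stand outside that rule. Reads of genes with near-identical copies may have been split or lost by the counting. No sequence is shown, as none was used here. A few genes are not reported here.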

Additional observations from a re-analysis of the deposited data

Results flagged for a closer look

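Within the 6 exposed and the 6 control F0 males, 330 sets of 6 values were searched for a lowest or highest fish standing apart, measured as its gap to the nearest fish over the whole range, with a limit of 0.625; 17 passed, and chance passes about 1 in 20. The 17 that passed are near what chance gives in 330 sets, so this search alone shows no fish to stand apart. Exposed F0 male 16 was the fish in 6 sets as the lowest and in 1 as the highest. It was lowest in genes detected at equal depth (0.753), in the mean of the clock list (0.664) and of the fatty acid list (0.719), and in TOMM70 (0.785), rph3aa (0.678) and rorca (0.835), and highest in higd1a (0.671). Exposed F0 male 36 was highest in photoreceptor markers (0.664).

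F0 control male 15 was highest in the mean of the cytosolic ribosomal list (0.781), in that of the meninges list (0.847) and in RPL31 (0.77), and lowest in foxo6a (0.657). F0 control male 31 was lowest in CFAP100 (0.794) and in si:ch211-93g21.1 (0.734) and highest in KCND3 (0.662). F0 control male 33 was highest in SOCS2 (0.769) and F0 control male 25 lowest in CLCN6 (0.701).

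The generation difference itself differed between the treated and the control arm for HLF, by 9.27 (log2, treated minus control), and for si:ch211-93g21.1, by 9.73. Both F2 control males had no read of either gene, so these fitted values depend on the prior count. The bounds given with the genes compare F2 with F0 control males only, against an assumed floor of 3 reads. They are no size of the difference between arms.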

How the results depend on the processing

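No paired analysis was possible because F2 and F0 males share only 1 fish number in each arm, 38 among treated and 25 among control fish, and a number marks no shared animal. The count of 2480 called genes (1126 higher, 1354 lower) became 5204 (2254 and 2950) in control males only and 5945 (2466 and 3479) there with DESeq2. In treated males only it was 0 (0 and 0; 884 at an unadjusted p below 0.05), 26 (7 and 19) with DESeq2, and 5 (2 and 3) without exposed F0 male 16. It was 902 (472 and 430) with all 24 fish, 3836 (1811 higher) with each library's percentage outside genes as a covariate, 4386 (1968 and 2418) without exposed F0 male 16 and F0 control males 9 and 33, and 0 (0 and 0; 1306 unadjusted) against a fold of 1.5. Without the arm term 591 were higher; DESeq2 called 2140 and single-run fish 2061 lower. With 1 fish left out, the counts ran over 57 to 5151 in all, 31 to 2376 higher and 26 to 2775 lower, each lowest without F2 control male 27 and highest without exposed F0 male 16. For the difference between arms, the count of 2 became 156 with DESeq2, 0 with all 24 fish (1303 unadjusted) and 0 to 63 with 1 fish left out. The causes were not tested.

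Of the 183 named genes called, 183 kept their call with relative log expression factors, 182 of 182 with DESeq2, 95 with all 24 fish, 51 without F2 control male 25, 43 without 27, and 0 in treated males only or against a fold of 1.5; none of the 183 (0) turned sign. Among named genes not called, signs turned for krt8 in control males only (-0.0323, and -0.0216 with DESeq2), calb2b in single-run fish (-0.0448), si:ch211-93g21.1 in treated males only (0.10, 0.10 with DESeq2, 0.0179 without exposed F0 male 16) and ifi27.1 there (-0.30 by both tools). Among library measures, the F2 minus F0 difference turned in control males only for reads outside genes (-0.515 percentage points) and genes detected (-615), in first runs for genes detected (-12.9), and in treated males only for ambiguous reads (-0.00307 percentage points) and the summed CPM of epidermis (18.97), erythrocyte (72.8), meninges (-46.0) and choroid plexus markers (7.39). With 1 fish left out it spanned -0.475 to 0.617 points for reads outside genes, -119 to 277 for genes detected and -9.69 to 57.0 CPM for meninges markers. The settings with DESeq2 in 1 arm, without exposed F0 male 16 in the treated arm, with single-run fish, and library measures with 1 fish left out were chosen after seeing the data. The F2 group held 4 males, 2 an arm, and the part of depth in these results was not tested.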
